A study of Homo sapiens with 6 samples.

Results

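The 53 genes described here encode proteins that carry a cell through mitosis: the cyclins and kinases that start it, the kinetochore proteins and kinesins that move chromosomes, and the proteins that end it. They were taken from a list of gene names, which was proposed with earlier results of these arrays known. All 53 had a probe set on the array, of 21357 genes with a symbol in the platform's probe table. Each gene was read at its brightest probe set, judged by the mean log2 value of the 6 arrays. That of CENPA also lists SLC35F6, so its signal cannot be assigned to 1 of these genes. The cells were MOLM-14, an established acute myeloid leukaemia line with the MLL-AF9 fusion. The DMSO group was exposed to the solvent dimethyl sulfoxide for 3 h. The CA group was exposed for 3 h to 25 nM cortistatin A, a steroidal alkaloid that inhibits CDK8 and CDK19, the kinases of the Mediator complex. Each group had 3 samples, from wells that held 500000 to 800000 cells per mL when plated, with 1 Affymetrix U133 Plus 2.0 array per sample. Both groups are the same line and no separate cultures are named, so the p-values rest on variation that may be technical.

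Mitosis is started by CDK1 bound to a B-type cyclin, after CDC25 phosphatases remove the phosphates that restrain it. Kinetochores then tie each chromatid to spindle microtubules, and a checkpoint holds the anaphase promoting complex inactive until all are attached. That complex marks securin and cyclin B for destruction, which frees separase to part the sister chromatids. Transcripts of most of these genes rise in G2 and fall after division, so their amount in a growing culture reflects both the share of cells in G2 and M and the amount per cell. In bulk RNA these cannot be told apart.

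The array medians lay between 5.03 and 5.08 on the log2 scale, and the mean log2 values of all 53 genes lay above them. Of the 53, 48 had a mean log2 value of 8 or more. The array of CA replicate 3 stood apart: it lay at 19.7 on the first principal component (31.6% of the variance), against -8.21 to 1.22 for the others. Of 8 listed myeloid markers 7 were measured, and 0 passed the limma test described below, adjusted or not. LYZ, PTPRC and FLT3 were well above the array medians on every array, while SPI1, between 5.33 and 5.60, was close to them. Of 12 listed markers of other cell types 10 were measured. The means of MS4A1, EPCAM and COL3A1 lay below the array medians, and that of CD3E (5.03) was level with them. Those of PECAM1 (10.91), KRT18 (9.26), COL1A1 (7.06), HBB (6.07), KRT8 (6.01) and CD3D (5.27) lay above them. PECAM1, which monocytes also express, rose 1.33-fold (limma, adjusted p = 0.0156, and 0.0777 to 0.123 without any 1 array but CA replicate 3). The summed linear level of the 10 markers was 2637 to 2684 in DMSO and 3150 to 3287 in CA, and without PECAM1 it was 973 to 1000.0 in DMSO and 926 to 1045 in CA. At an unadjusted limma p under 0.05, HBB was higher (log2 change 0.25) and MS4A1 lower (-0.26). The sum of the 7 myeloid markers was 8722 to 8917 in DMSO and 7224 to 9063 in CA. The part of these markers in the results below was not tested.

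After 3 h of CA, 1 of the 53 genes passed the test across all genes. ESPL1, which encodes separase, rose 1.23-fold. The differences of the others were small and mostly upward: 39 of 53 were above 0, with a median log2 change of 0.066, against 51.8% of 20293 probe sets tested and a median of 0.0041. The test was limma with Benjamini-Hochberg adjustment over all 20293 probe sets, with a threshold of 0.05 on the adjusted p. It called 0.828% of all probe sets higher and 0.0641% lower, so 1 called gene of 53 (1.89%) is near the background. With no adjustment, 14 of the 53 had a limma p under 0.05 and lay higher (26.4%, against 7.09% of all probe sets), while 0 lay lower (against 4.49%). Among the 9597 probe sets at least as bright as the dimmest of these genes, these shares were 10.6% higher and 4.52% lower. Of these 9597, 56.5% were above 0, with a median log2 change of 0.013. The 3 CA values lay above the 3 DMSO values for 27 of the 53 genes, against 11.9% of all probe sets and 20.1% of those as bright. They lay below the DMSO values for 1 gene, CENPN, against 7.49% of all probe sets and 967 of the 9597 as bright. Since the list was proposed with those results known, this shift is a description and not independent support.

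The count of called genes depended on the fit. With an intensity trend and a robust prior 8 genes were higher, where that fit called 2.3% of all probe sets higher and 0.498% lower. In that fit 22 of the 53 lay higher at an unadjusted p under 0.05 and 3 lower (CDK1, MAD2L1 and NUF2). Without dim probe sets 5 were higher, against 2.47% higher and 0.317% lower, and 0 passed when any 1 of the 6 arrays was left out. Over all probe sets such fits made 0 calls (without DMSO replicate 1) to 110 (without CA replicate 3), against 181 with all arrays. The median shift without CA replicate 3 was 0.082, and 15 genes then had an unadjusted p under 0.05 and lay higher. Shares of all probe sets at an unadjusted p were not counted for these other fits. The counts of 22, 3 and 15 therefore have no background beside them.

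**Figure D1:**
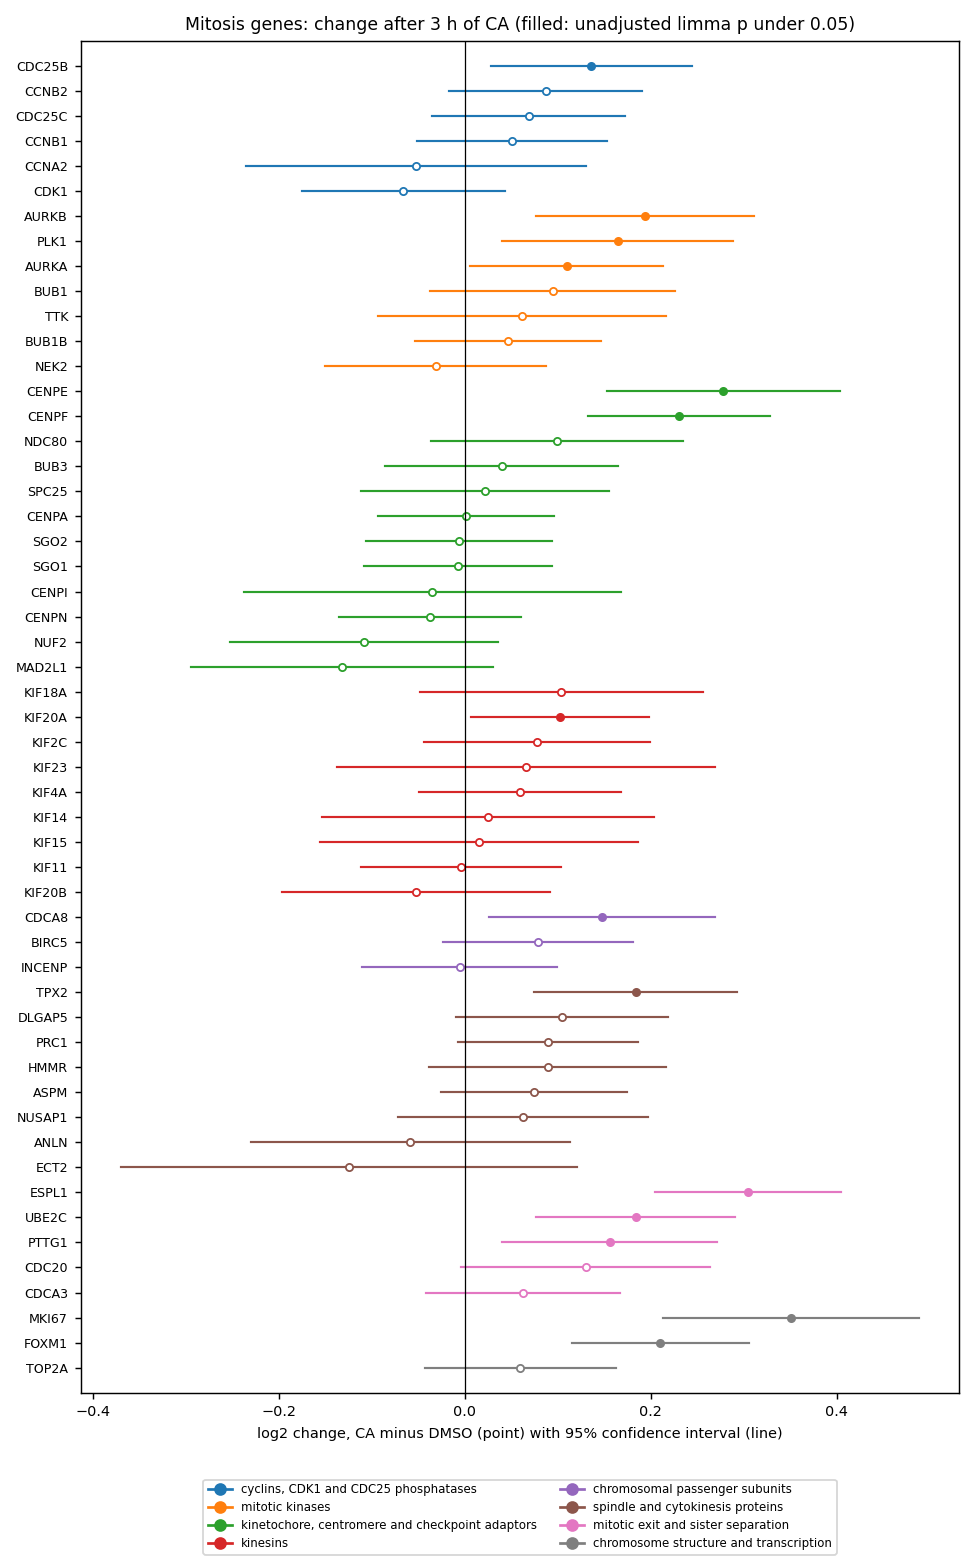
Log2 change (CA minus DMSO, x axis) of the 53 genes, grouped by role and ordered within each group, with 95% confidence intervals from limma. Filled points have an unadjusted p under 0.05; all 14 of them lie above 0, from KIF20A at 0.10 to MKI67 at 0.35.

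Of the 5 genes of mitotic exit and sister separation, 1 passed the test. An unadjusted p under 0.05 was found for 3, all higher (60.0%, against 10.6% of probe sets as bright). For all 5 the 3 CA values lay above the 3 DMSO values, against 20.1% of probe sets as bright, and their median log2 change was 0.16. ESPL1, the protease that cuts cohesin, had log2 values of 8.09, 8.11 and 8.14 in DMSO replicates 1 to 3 and 8.40, 8.42 and 8.44 in CA replicates 1 to 3. The gap between the groups was several times the spread within either. The log2 change was 0.30 (SE 0.041, adjusted p = 0.0336 in limma), or 1.23-fold (95% confidence interval 1.15 to 1.32). This call was lost without any 1 array, with adjusted p-values of 0.0762 (without CA replicate 3) to 0.198 (without DMSO replicate 1). It was also lost with the replicate number as a block (0.135), with each array centred on its median (0.0622), with the mean of all probe sets of a gene (0.162) and without _x_at, _s_at and _a_at probe sets (0.0732). PTTG1 encodes securin, the inhibitor that holds separase until anaphase. Its log2 values were 11.47, 11.52 and 11.56 in DMSO and 11.63, 11.68 and 11.71 in CA. The groups did not overlap, and the log2 change of 0.16 (SE 0.048) had an adjusted p of 0.302 in limma.

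UBE2C, the ubiquitin-conjugating enzyme that works with the anaphase promoting complex, had log2 values of 10.77, 10.79 and 10.84 in DMSO and 11.01, 11.00 and 10.95 in CA. All CA arrays were higher, with a log2 change of 0.18 (SE 0.045) and an adjusted p of 0.184 in limma. CDC20, which activates the complex at anaphase, had log2 values of 11.11, 11.18 and 11.18 in DMSO and 11.25, 11.23 and 11.38 in CA. Here CA replicate 3 was the highest array, and the log2 change of 0.13 (SE 0.055) had an adjusted p of 0.443 in limma. CDCA3, a mitotic entry factor that the complex degrades, had a log2 change of 0.063 at the probe set used and 0.21 at its other, dimmer one.

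The genes of chromosome structure and transcription had the largest single difference among the 53. MKI67 encodes Ki-67, which coats mitotic chromosomes and marks cycling cells. Its log2 values were 9.65, 9.74 and 9.81 in DMSO and 10.04, 10.07 and 10.13 in CA. The groups stood well apart, although the DMSO arrays differed more among themselves than those of ESPL1. The log2 change was 0.35 (SE 0.057), or 1.28-fold (95% confidence interval 1.16 to 1.40), with an adjusted p of 0.0638 in limma. FOXM1, a transcription factor that activates many genes of this list, had log2 values of 8.40, 8.41 and 8.38 in DMSO and 8.60, 8.61 and 8.60 in CA. Both groups were tight, and the log2 change of 0.21 (SE 0.040) had an adjusted p of 0.0947 in limma. TOP2A, the topoisomerase that untangles chromosomes, had log2 values of 12.04, 12.05 and 12.04 in DMSO and 12.11, 12.14 and 12.06 in CA. Its log2 change was 0.060 (SE 0.043).

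**Figure D2:**
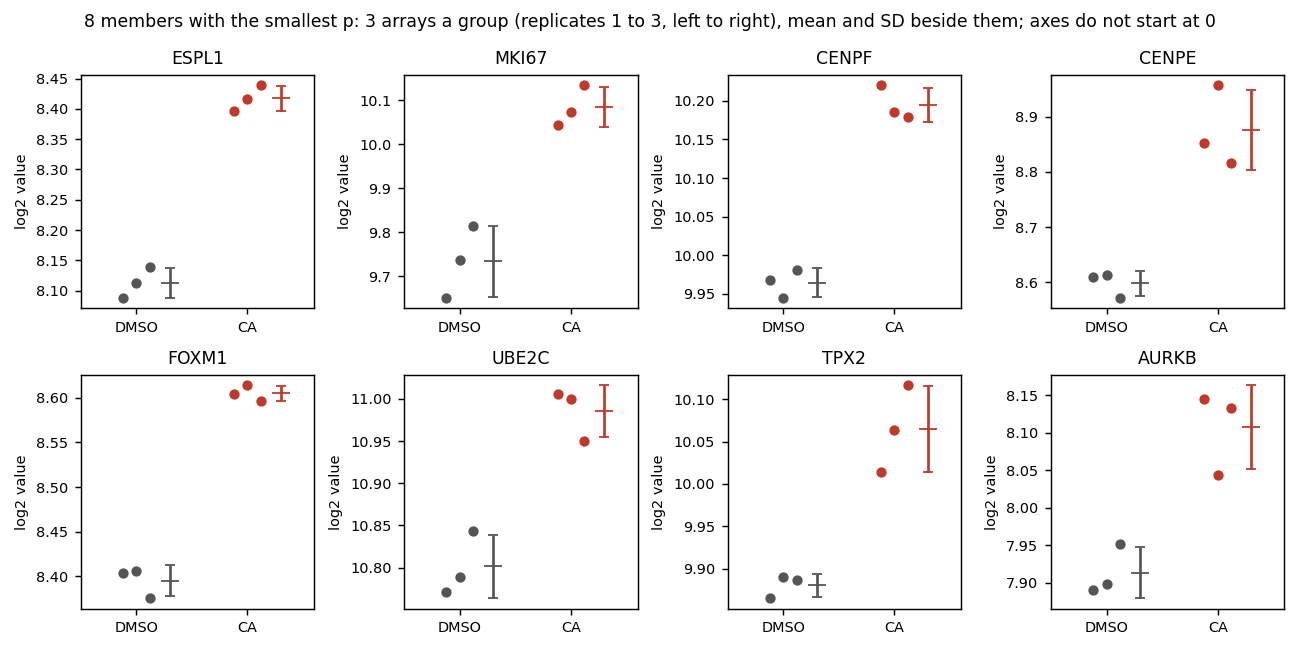
Log2 values of the 8 genes with the smallest limma p on each of 3 DMSO and 3 CA arrays (points, replicates 1 to 3 from left to right), with the mean and SD beside them. In each panel the lowest CA array lies above the highest DMSO array, and each panel has its own y axis, which does not start at 0. Choosing genes by p on these same arrays favours such separation, so it is not independent support.

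Kinetochore, centromere and checkpoint genes were split. Of 12, 6 were above 0 and 6 below, with a median log2 change of -0.0026. Of those above, 2 had an unadjusted p under 0.05 (16.7% of the group, against 10.6% of probe sets as bright). CENPE, a kinesin that carries chromosomes along microtubules at the kinetochore, had log2 values of 8.61, 8.61 and 8.57 in DMSO and 8.85, 8.96 and 8.82 in CA. All CA arrays were clearly higher, with a log2 change of 0.28 (SE 0.052), or 1.21-fold (95% confidence interval 1.11 to 1.32), and an adjusted p of 0.0915 in limma. CENPF, a large coiled-coil protein of the outer kinetochore, had log2 values of 9.97, 9.95 and 9.98 in DMSO and 10.22, 10.19 and 10.18 in CA. The 2 groups were each tight, and the log2 change was 0.23 (SE 0.041, adjusted p = 0.0818 in limma).

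The lowest log2 change of all 53 was that of MAD2L1, which encodes the checkpoint protein MAD2. Its log2 values were 12.14, 12.18 and 12.09 in DMSO and 12.03, 12.10 and 11.88 in CA. The groups overlapped, CA replicate 3 was the lowest array, and the log2 change of -0.13 (SE 0.068) had an adjusted p of 0.518 in limma. NUF2, a subunit of the NDC80 complex that grips microtubules, had log2 values of 10.40, 10.45 and 10.38 in DMSO and 10.32, 10.38 and 10.20 in CA. Its groups overlapped too, with a log2 change of -0.11 (SE 0.060). The other subunits of that complex on the list, NDC80 and SPC25, had log2 changes of 0.099 and 0.022. The log2 change was 0.040 for the checkpoint adaptor BUB3 and 0.0011 for the probe set of the centromeric histone CENPA. It was -0.035 and -0.037 for CENPI and CENPN of the inner kinetochore. The shugoshins SGO1 and SGO2, which protect cohesin at centromeres, had -0.0072 and -0.0063.

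Among 7 mitotic kinases, 6 were above 0, with a median log2 change of 0.094. An unadjusted p under 0.05 was found for 3 of the 6. That is 42.9% of the group, against 10.6% of probe sets as bright that lay higher. AURKB is the kinase of the chromosomal passenger complex, which corrects faulty attachments. Its log2 values were 7.89, 7.90 and 7.95 in DMSO and 8.15, 8.04 and 8.13 in CA. The groups did not overlap (log2 change 0.19, SE 0.049, adjusted p = 0.199 in limma). PLK1, needed for mitotic entry and spindle assembly, had log2 values of 7.05, 6.99 and 6.94 in DMSO and 7.14, 7.22 and 7.12 in CA. The gap between the groups was smaller than the spread within either, and the log2 change of 0.16 (SE 0.052) had an adjusted p of 0.308 in limma. AURKA, the kinase of spindle poles, had log2 values of 11.21, 11.28 and 11.29 in DMSO and 11.37, 11.38 and 11.36 in CA. Its CA arrays were closely spaced and above DMSO, with a log2 change of 0.11 (SE 0.043).

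BUB1, a checkpoint kinase of the kinetochore, had log2 values of 10.02, 10.01 and 10.01 in DMSO and 10.13, 10.18 and 10.01 in CA. CA replicate 3 lay among the DMSO arrays, and the log2 change was 0.094 (SE 0.055). The other kinases of this group were BUB1B, which encodes the checkpoint protein BubR1, the checkpoint kinase TTK and the centrosomal kinase NEK2. Their log2 changes were 0.046, 0.061 and -0.031.

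Cyclins, CDK1 and the CDC25 phosphatases differed little. Of 6 genes, 4 were above 0, and the median log2 change was 0.060. An unadjusted p under 0.05 was found for 1 of the 4. That is 16.7% of the group, against 10.6% of probe sets as bright that lay higher. CDC25B, which first activates CDK1, had log2 values of 9.00, 9.04 and 9.05 in DMSO and 9.21, 9.12 and 9.16 in CA. All CA arrays were higher, with a log2 change of 0.14 (SE 0.045, adjusted p = 0.330 in limma). CCNB2, which encodes cyclin B2, had log2 values of 11.28, 11.29 and 11.29 in DMSO and 11.34, 11.35 and 11.42 in CA. The groups did not overlap, but the log2 change was only 0.087 (SE 0.043). CDC25C had log2 values of 7.23, 7.28 and 7.27 in DMSO and 7.34, 7.35 and 7.29 in CA, with a log2 change of 0.069 (SE 0.043).

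CDK1 itself had log2 values of 12.70, 12.75 and 12.66 in DMSO and 12.62, 12.67 and 12.63 in CA. Its groups overlapped, and the log2 change of -0.066 (SE 0.045, 95% confidence interval -0.18 to 0.044) had an adjusted p of 0.630 in limma. The log2 change was -0.053 for CCNA2, which encodes cyclin A2, and 0.051 for CCNB1, which encodes cyclin B1.

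Kinesins, the motors that slide microtubules and carry cargo along them, were mostly above 0. Of 9, 7 were above 0, with a median log2 change of 0.059. An unadjusted p under 0.05 was found for 1 of the 7. That is 11.1% of the group, close to the 10.6% of probe sets as bright that lay higher. KIF20A, a motor of the central spindle in cytokinesis, had log2 values of 9.21, 9.20 and 9.21 in DMSO and 9.33, 9.30 and 9.29 in CA. The DMSO arrays were nearly equal, and the log2 change of 0.10 (SE 0.040) had an adjusted p of 0.404 in limma. KIF2C, which shortens microtubules at centromeres, had log2 values of 10.25, 10.27 and 10.23 in DMSO and 10.30, 10.28 and 10.41 in CA. Its CA replicate 3 was the highest array, and the log2 change was 0.077 (SE 0.050). KIF18A, which shortens kinetochore microtubules, had log2 values of 8.07, 8.11 and 8.04 in DMSO and 8.21, 8.26 and 8.06 in CA. Here CA replicate 3 lay among the DMSO arrays, and the log2 change was 0.10 (SE 0.063).

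KIF4A, a motor of chromosome arms, had log2 values of 9.26, 9.29 and 9.35 in DMSO and 9.35, 9.39 and 9.34 in CA. Its groups overlapped, with a log2 change of 0.059 (SE 0.045). KIF11, the motor that separates spindle poles, had a log2 change of -0.0043 (95% confidence interval -0.11 to 0.10). The remaining kinesins lay between -0.053 for KIF20B and 0.066 for KIF23, with KIF14 at 0.025 and KIF15 at 0.015.

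Spindle and cytokinesis proteins had a median log2 change of 0.082, and 6 of 8 were above 0. TPX2, which activates AURKA and nucleates spindle microtubules, had log2 values of 9.87, 9.89 and 9.89 in DMSO and 10.01, 10.06 and 10.12 in CA. All CA arrays were higher, with a log2 change of 0.18 (SE 0.045, adjusted p = 0.194 in limma). DLGAP5, which stabilises kinetochore fibres, had log2 values of 10.54, 10.49 and 10.51 in DMSO and 10.56, 10.64 and 10.66 in CA. Its CA replicate 1 was close to the DMSO arrays, and the log2 change was 0.10 (SE 0.047). PRC1, which bundles the central spindle, had log2 values of 10.79, 10.79 and 10.83 in DMSO and 10.90, 10.90 and 10.89 in CA, a log2 change of 0.089 (SE 0.040).

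ASPM, a protein of spindle poles, had log2 values of 10.85, 10.90 and 10.85 in DMSO and 10.94, 10.96 and 10.92 in CA. The groups were close but did not overlap, with a log2 change of 0.075 (SE 0.042). HMMR and NUSAP1, which bind spindle microtubules, had log2 changes of 0.089 and 0.063. The log2 change was -0.12 (SE 0.10) for ECT2, the exchange factor that activates RhoA for cytokinesis, and -0.058 for ANLN, which encodes anillin of the contractile ring. For ECT2, CA replicate 3 at 9.33 was the lowest array, against 9.65 and 9.68 on the other CA arrays.

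The chromosomal passenger complex joins AURKB to 3 partners. CDCA8, which encodes borealin, had log2 values of 8.97, 9.09 and 9.03 in DMSO and 9.15, 9.22 and 9.17 in CA. All CA arrays were higher, with a log2 change of 0.15 (SE 0.051, adjusted p = 0.345 in limma). BIRC5, which encodes survivin, had log2 values of 10.52, 10.58 and 10.58 in DMSO and 10.65, 10.63 and 10.63 in CA, a log2 change of 0.078 (SE 0.042). INCENP, the scaffold of the complex, had log2 values of 6.23, 6.27 and 6.29 in DMSO and 6.25, 6.23 and 6.29 in CA. Its groups overlapped fully, with a log2 change of -0.0056 (SE 0.044).

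The arrays did not contribute equally. The median over the 53 genes of the deviation from each gene's mean was -0.053, -0.013 and -0.040 on DMSO replicates 1 to 3 and 0.026, 0.063 and 0.014 on CA replicates 1 to 3. CA replicate 2 was the highest array for 24 genes. CA replicate 3 was the highest for 10 and the lowest for 12, and the SD of the deviations was 0.100 there, against 0.042 to 0.072 on the other arrays. Over all probe sets the same medians lay between -0.0055 and 0.017. For the kinesins CA replicate 3 had a median deviation of -0.066, below all DMSO arrays, whereas for mitotic exit and sister separation it was the highest array at 0.12.

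**Figure D3:**
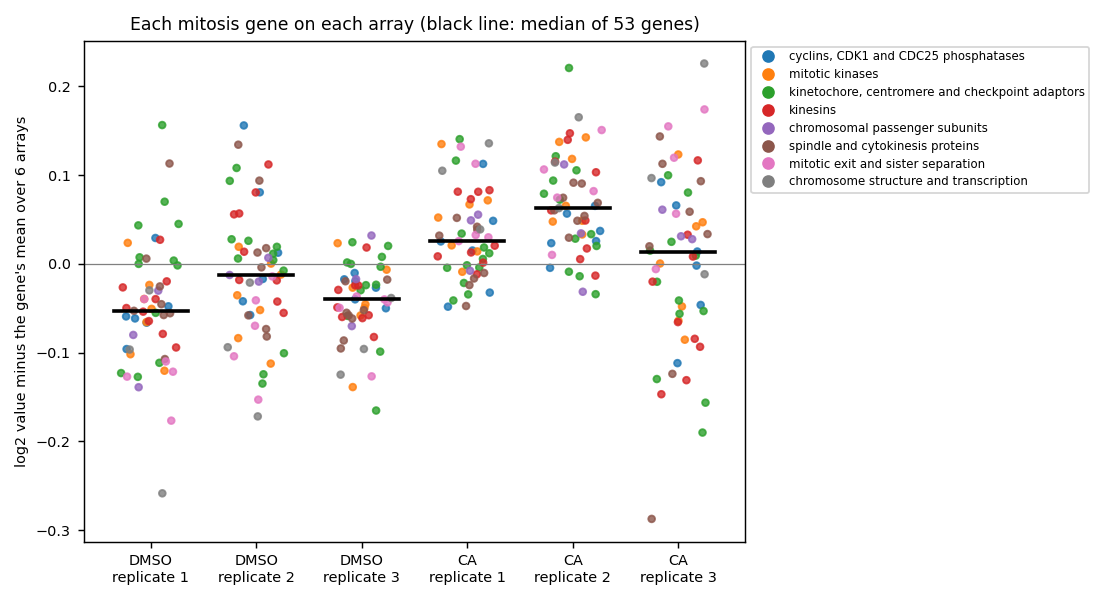
Log2 value of each of the 53 genes minus its mean over the 6 arrays (y axis), by array (x axis) and coloured by role; black lines are medians. The medians of the CA arrays (0.014 to 0.063) lie above those of the DMSO arrays (-0.053 to -0.013), and the genes spread most widely on CA replicate 3.

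Of the 53 genes, 31 had other probe sets, 57 in all. In a limma fit over all 54613 probe sets, 40 of the 57 were above 0, and 42 had the sign of the probe set used. Among the 24 with a mean log2 value of 8 or more, 19 were above 0, the median log2 change was 0.076, and an unadjusted p under 0.05 was found for 6 above 0 and 1 below. The matching shares of all probe sets were not counted for this fit. In the main fit 56.5% of the 9597 probe sets at least as bright as the dimmest of the 53 genes were above 0. At an unadjusted p under 0.05, 10.6% of them lay higher and 4.52% lower. For ESPL1 the other probe set had a log2 change of 0.15 against 0.30, and for MKI67 the others had 0.31, 0.15 and 0.088 against 0.35. So the direction was shared and the size was not. BUB3 had log2 changes of 0.15, 0.17 and 0.17 at its other bright probe sets against 0.040 at the one used. CCNB1 had -0.18 at its other probe set (unadjusted p = 0.0220) against 0.051, the one lower value among the bright probe sets at that threshold. In this wider fit ESPL1 had an adjusted p of 0.110.

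**Figure D4:**
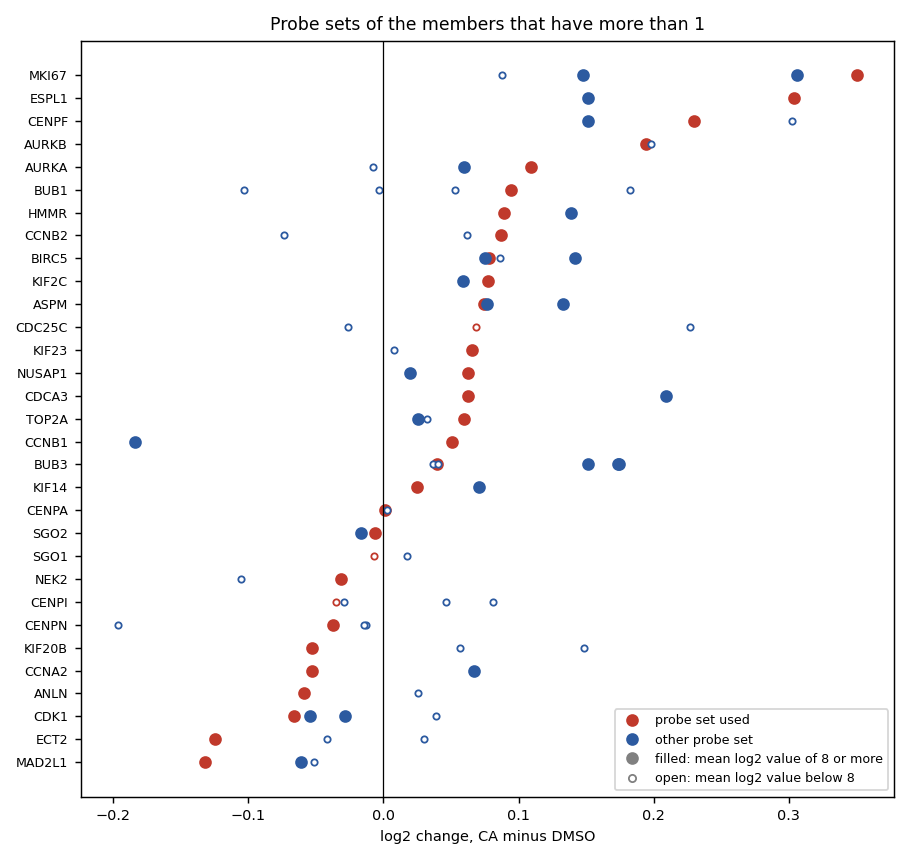
Log2 change (CA minus DMSO, x axis) at each probe set of the 31 genes that have more than 1, ordered by the probe set used (red), with the other probe sets in blue. Of 57 other probe sets 40 lie to the right of 0, with no share of all probe sets counted for this fit. The bright exception for a gene above 0 is CCNB1 at -0.18.

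Many promoters of G2 and M genes hold a CHR element, bound by the MuvB core of the DREAM and MYBL2-FOXM1 complexes, and CCAAT boxes, bound by NF-Y. RefSeq promoter windows (GRCh38.p14, 250 bases before to 50 after the start) were found for 46 of the 53 genes, as 57 windows. The letters TTTGAA (CHR) were in 36 of the 57 windows (63.2%), against 12.3% of 22493 windows of genes with a tested probe set. The letters CCAAT were in 44 (77.2%, against 34.6%), with both strands searched. Only these exact letters were sought, so an element spelled otherwise would be missed. At least 2 CCAAT copies were in 40.4%, against 11.4%, and both motifs in 52.6%, against 4.90%. The 33 genes with TTTGAA had a median log2 change of 0.063 after CA and the 13 without it 0.077. The medians were 0.064 for the 38 genes with CCAAT and 0.031 for the 8 without. Of the 14 genes with an unadjusted p under 0.05, AURKA, TPX2, UBE2C and FOXM1 had no window in the table. The others were 5 of the 33 genes with TTTGAA and 5 of the 13 without, and 9 of the 38 with CCAAT and 1 of the 8 without. At that threshold 7.09% of all probe sets lay higher, and 10.6% of those at least as bright as the dimmest of the 53 genes. Differences between genes with and without a motif were not tested.

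The 120 bases before the start are shown for the 4 genes with 1 listed start and the smallest p, and for CCNB2, chosen after its values were seen, which holds both motifs and differed little after CA. They run 5′ to 3′ on the gene's strand, with TTTGAA and CCAAT in capitals. On the opposite strand a CCAAT box reads as ATTGG, also in capitals. They lie at chr12:53268179-53268298, plus strand (ESPL1), chr10:128126424-128126543, minus strand (MKI67), chr1:214603075-214603194, plus strand (CENPF), chr4:103198344-103198463, minus strand (CENPE) and chr15:59105026-59105145, plus strand (CCNB2).
ESPL1: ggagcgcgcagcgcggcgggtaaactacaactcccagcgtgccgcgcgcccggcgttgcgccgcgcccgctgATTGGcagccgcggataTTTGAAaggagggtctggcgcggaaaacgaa
MKI67: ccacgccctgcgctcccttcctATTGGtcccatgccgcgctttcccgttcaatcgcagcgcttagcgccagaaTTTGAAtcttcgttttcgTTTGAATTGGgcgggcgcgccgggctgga
CENPF: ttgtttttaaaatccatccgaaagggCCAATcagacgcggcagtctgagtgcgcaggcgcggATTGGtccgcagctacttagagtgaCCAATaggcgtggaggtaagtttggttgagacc
CENPE: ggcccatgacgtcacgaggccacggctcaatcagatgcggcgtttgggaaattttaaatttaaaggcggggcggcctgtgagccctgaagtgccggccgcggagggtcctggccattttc
CCNB2: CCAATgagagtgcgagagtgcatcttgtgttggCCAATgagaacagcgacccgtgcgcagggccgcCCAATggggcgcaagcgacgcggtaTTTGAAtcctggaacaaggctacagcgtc
In ESPL1 a TTTGAA began 31 bases before the start, downstream of 1 ATTGG, and CCNB2 had the same order with 3 CCAAT copies and a TTTGAA 29 bases before the start. In MKI67 the TTTGAA 29 bases before the start overlaps an ATTGG. CENPF held 3 CCAAT copies in either orientation and no TTTGAA in this stretch, although its window holds one in the 50 bases after the start. CENPE held neither TTTGAA nor CCAAT on either strand of its window, and other spellings were not searched.

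Other genes were read from 6 lists with 135 genes, of which 133 were measured. Most of these serve mitosis, but the kinesin list also holds motors of transport, such as KIF3A, KIF5B, KIF1B and KIF13A. Over these, 71 were above 0 and 62 below, with a median log2 change of 0.0072. An unadjusted limma p under 0.05 was found for 9 that were higher (6.77%) and 7 that were lower (5.26%), close to the 7.09% and 4.49% of all probe sets. Adjusted over all probe sets 1 passed, CCNA1, which encodes cyclin A1, a cyclin of the germ line and of some myeloid leukaemias. Its log2 values were 6.76, 6.93 and 6.78 in DMSO and 7.53, 7.55 and 7.55 in CA. The groups stood far apart, with a 1.64-fold rise (95% confidence interval 1.49 to 1.81, adjusted p = 0.00904 in limma). The adjusted p was 0.0617 to 0.0760 without DMSO replicate 1, DMSO replicate 3, CA replicate 1 or CA replicate 2, and 0.0636 with the replicate number as a block.

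Among 17 genes that control CDK1, BORA, a cofactor of AURKA, had the next smallest p with a log2 change of 0.15 (SE 0.064), and the list had a median of -0.012. Of 33 other kinesins and spindle assembly genes, 4 that were higher and 3 that were lower had an unadjusted p under 0.05. These shares were 12.1% and 9.09%, against 7.09% and 4.49% of all probe sets. KIF21B, a kinesin that is not a mitotic motor, had a log2 change of 0.24 (adjusted p = 0.0802 in limma), and SPAG5, which encodes the spindle protein astrin, had 0.15. Of the 3 that were lower, KIF3A (log2 change -0.29) and KIF1B (-0.13) are transport motors. The third, TACC1 (-0.11), was listed as a spindle assembly gene. Of 33 other kinetochore and centromere genes, 2 higher (6.06%) and 1 lower (3.03%) had an unadjusted p under 0.05. Both were near the 7.09% higher and 4.49% lower of all probe sets. The checkpoint adaptor SPDL1 had a log2 change of 0.16 and the inner kinetochore gene CENPO 0.14.

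Of 17 genes of the anaphase promoting complex and its regulators, 1 that was higher and 1 that was lower had an unadjusted p under 0.05. Each is 5.88%, near the 7.09% higher and 4.49% lower of all probe sets. FBXO5, which encodes the inhibitor EMI1, had log2 values of 10.78, 10.83 and 10.67 in DMSO and 10.49, 10.52 and 10.44 in CA. All CA arrays were lower, with a log2 change of -0.28 (SE 0.058, adjusted p = 0.128 in limma). The subunit gene ANAPC7 had 0.12. Of 18 condensin and cohesin genes, 1 that was higher had an unadjusted p under 0.05 (5.56%, against 7.09% of all probe sets). That gene was NCAPH of condensin, with a log2 change of 0.13, and CDCA5, which encodes sororin, had 0.094. Of 15 genes of DREAM, MuvB and NF-Y, 0 that were higher and 2 that were lower had an unadjusted p under 0.05. The lower share was 13.3%, against 4.49% of all probe sets. They were LIN52 with a log2 change of -0.16 (adjusted p = 0.194 in limma) and NFYA, an NF-Y subunit, with -0.18. The median of this list was -0.045.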

How the data were processed

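RNA of 6 MOLM-14 samples was measured on Affymetrix U133 Plus 2.0 arrays from 100 ng of total RNA, per the labels' protocols. The authors deposited log2 values per probe set. The submitters' processing notes name RMA and the R package affy, with versions not given in the sources used here. RMA normalises quantiles across arrays, so a change shared by all genes is lost.

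The deposited table had 54675 probe sets. Of these, 62 controls were left out, 41091 had 1 gene symbol, 1801 several and 11721 none. The highest-mean probe set of each gene was kept, also where a probe set lists several genes, giving 20293 distinct probe sets for 21357 genes. CA and DMSO were compared with limma 3.58.1 in R 4.3.3 (two-sided, no block), with a prior of 2.49 degrees of freedom. With 3 arrays a group, their number limits the precision, and the median SE was 0.071.

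The members, lists and tests were chosen with earlier results of these data known. Values of every array are given for the 4 genes of each group with the smallest p. Of each other list, the 2 genes with the smallest p and any past the threshold are named, and genes named beyond that were chosen after their values were seen. Alternatives were the fit, array weights, replicate block, dim probe sets, probe set choice, scaling, and each array left out. Same-numbered replicates were not treated as pairs, since the labels state no pairing. Their deviations correlated at 0.041 to 0.25, against -0.26 to 0.092 for CA and DMSO arrays with different numbers.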

Additional observations from a re-analysis of the deposited data

How the results depend on the processing

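The median log2 change of the 53 genes stayed above 0 under the 15 alternatives. It was 0.037 without _x_at, _s_at and _a_at probe sets, where 41 genes were left, and 0.057 to 0.085 when each array was left out in turn. Of those 41 genes 26 were above 0, and 6 higher and 1 lower had an unadjusted limma p under 0.05. MKI67, FOXM1, TPX2, PTTG1, CDC25B and CDCA8 have only such probe sets and were not among the 41. The share of all probe sets at an unadjusted p was not counted for any alternative. The number of genes called was 8 with an intensity trend and robust prior (CENPE, CENPF, TPX2, UBE2C, PTTG1, ESPL1, FOXM1 and MKI67, all higher) and 5 without dim probe sets (CENPE, CENPF, ESPL1, FOXM1 and MKI67). It was 0 with the mean of all probe sets of a gene, without _x_at, _s_at and _a_at probe sets, with each array centred on its median, in the fit over all 54613 probe sets (chosen after seeing the data), and in each of the 6 fits that left out 1 array (0 to 0, with 9 to 15 genes above 0 at an unadjusted limma p under 0.05). With the replicate block it was 0, where 12 genes above 0 and 1 below had an unadjusted p under 0.05; over all probe sets the block left 6 called, against 181 without it, and 5 of 6 arrays correlated best with their own number, a hint from the data and not from the design. ESPL1 had adjusted p-values of 0.00253 to 0.198 over the alternatives. Of the other mitosis genes, 3 were called with the trend and robust fit (CCNA1 and KIF21B higher, FBXO5 lower), 2 without dim probe sets, 0 with the replicate block, and 0 to 1 with an array left out: 0 without DMSO replicate 1, DMSO replicate 3, CA replicate 1 or CA replicate 2, and 1 otherwise. CCNA1 lost its call there, as ESPL1 did in every such fit; the cause was not tested beyond fewer arrays. Without _x_at, _s_at and _a_at probe sets the log2 change reversed for CDC25C (-0.026), AURKA (-0.0076), CCNB1 (-0.18, the 1 of the 53 lower at an unadjusted p under 0.05 there), SPDL1 (-0.10) and ANAPC7 (-0.099), each read at a dimmer probe set. With the mean of all probe sets it reversed for CCNA2 (0.0071), CCNB1 (-0.066), CENPI (0.016), SGO1 (0.0050) and KIF20B (0.051), and with array weights for CENPA (-0.0023), SGO2 (0.0038) and KIF11 (0.0029). With each array left out, 11 genes crossed 0, all within 0.053 of 0 with all arrays: CENPI (-0.094 to 0.035), KIF15 (-0.038 to 0.066), CCNA2 (-0.099 to 0.012), CENPA (-0.0060 to 0.0059), SGO1 (-0.021 to 0.0048), KIF11 (-0.020 to 0.022), INCENP (-0.022 to 0.0090), SPC25 (-0.019 to 0.056), KIF14 (-0.020 to 0.10), NEK2 (-0.063 to 0.0036) and SGO2 (-0.018 to 0.013).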
